A study of Arabidopsis thaliana with 5 samples.

Results

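Hsp70-2 (AT5G02490) and AT3G09440 are 2 genes of the heat shock protein 70 family of Arabidopsis thaliana. They were followed over 5 one-colour Affymetrix arrays of whole plants. All probe sets naming either gene were taken, which gave 2 genes of the 3602 that a probe set named alone, with 2 probe sets each. No probe set named either of them together with other genes. The arrays were those of the line CAMTA.1 in the accession WS, the accession WS with no line named, the lines CAMTA.1.2 and CAMTA.6.2 in the accession Col-0, and Col-0 with no line named. Each had 1 array. The plants of all 5 arrays were labelled with growth stage 1.04 and were kept at 18 degrees and 65% humidity, with 16 h of light and 8 h of dark, on Gamborg's B-5 medium. No heat treatment was labelled.

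CAMTA.1.2 and CAMTA.6.2 were labelled as T-DNA insertion lines of Columbia made with the vector pROK2, and CAMTA.6.2 as still segregating, so its plants need not all carry the insertion. For CAMTA.1 the labels give a line name and no modification. Pooling of plants was not stated. The source names go against these characteristics. The Col-0 array carried KO1, the CAMTA.6.2 array WSC and the WS array EX1 in its source name. Arrays are therefore called by their labelled line or accession, so that CAMTA.1 below stands for the array labelled CAMTA.1, and every direction rests on those labels. The series concerns transcription factors that bind calcium and calmodulin, and the lines are named after calmodulin-binding transcription activators. No probe set named CAMTA1 or CAMTA6, so the lines could not be checked on those genes. With 1 array in each group there was no replicate and no test.

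Heat shock 70 proteins are ATP-driven chaperones that bind unfolded stretches of other proteins, prevent their aggregation and pass them on for folding, transport or breakdown. Their J-domain partners deliver substrates and stimulate ATP hydrolysis. The cytosolic members are known both as cognate forms made in unstressed tissue and as forms induced by heat, through heat shock factors. Hsp70-2 and AT3G09440 (also known as heat shock cognate protein 70-3) belong to the cytosolic group. In the reference gene table, the next protein-coding gene after Hsp70-2 on chromosome 5 was HSC70-1, another cytosolic member, and no probe set named HSC70-1 alone. The coding sequences of cytosolic family members are close to each other, so cross-hybridisation between them cannot be told apart from the named gene's own signal. In Affymetrix naming the suffix s_at marks a probe set whose probes may match more than 1 transcript. Each gene had 1 probe set with this suffix and 1 without. Whether 16916_s_at, one of those with the suffix, reads Hsp70-2, the neighbouring HSC70-1 or both was not checked, and its values are given under Hsp70-2 as the platform annotation names it.

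Both Hsp70 genes were lowest on the arrays labelled CAMTA.1 and CAMTA.6.2. Their brighter probe sets put the 5 arrays in the same order, with CAMTA.1.2 highest, then Col-0, WS, CAMTA.6.2 and CAMTA.1. For Hsp70-2 the brighter probe set, 16465_at, had a scaled intensity of 38.4 in CAMTA.1 against 150 in WS. It had 264 in CAMTA.1.2 and 64.6 in CAMTA.6.2, against 195 in Col-0. Intensities are on a linear scale after each array was scaled to a common median. The highest and lowest arrays were 6.86-fold apart. Between neighbours in the order, the step was 1.36-fold from CAMTA.1.2 to Col-0, 1.30-fold from Col-0 to WS, 2.32-fold from WS to CAMTA.6.2 and 1.68-fold from CAMTA.6.2 to CAMTA.1. The step from WS to CAMTA.6.2 was thus the one past 2-fold. In RNA of whole plants, fewer cells that express a gene and less RNA per cell cannot be told apart.

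For AT3G09440 the brighter probe set, 15960_at, had 499 in CAMTA.1 against 1139 in WS. It had 2651 in CAMTA.1.2 and 914 in CAMTA.6.2, against 2074 in Col-0. The range was 5.32-fold. Its steps were 1.28-fold, 1.82-fold, 1.25-fold and 1.83-fold from the top of the order to the bottom, so no neighbours were 2-fold apart. On these brighter probe sets, WS lay close to CAMTA.6.2 for AT3G09440, and nearer to Col-0 for Hsp70-2. On the other probe set of AT3G09440, 16466_s_at, WS lay 1.32-fold from CAMTA.6.2 and 1.33-fold from Col-0.

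The second probe sets followed part of this order. For Hsp70-2, probe set 16916_s_at had 2.05 in CAMTA.1, under the floor of 18.1 below which intensities were not told apart, against 105 in WS. It had 60.4 in CAMTA.1.2 and 32.8 in CAMTA.6.2, against 71.3 in Col-0. CAMTA.1 and CAMTA.6.2 were again the lowest, but WS and not CAMTA.1.2 was the highest. For AT3G09440, probe set 16466_s_at had 606 in CAMTA.1 against 801 in WS. It had 1295 in CAMTA.1.2 and 605 in CAMTA.6.2, against 1068 in Col-0. CAMTA.1 and CAMTA.6.2 lay 1.00-fold apart on it, and its whole range was 2.14-fold.

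**Figure D1:**
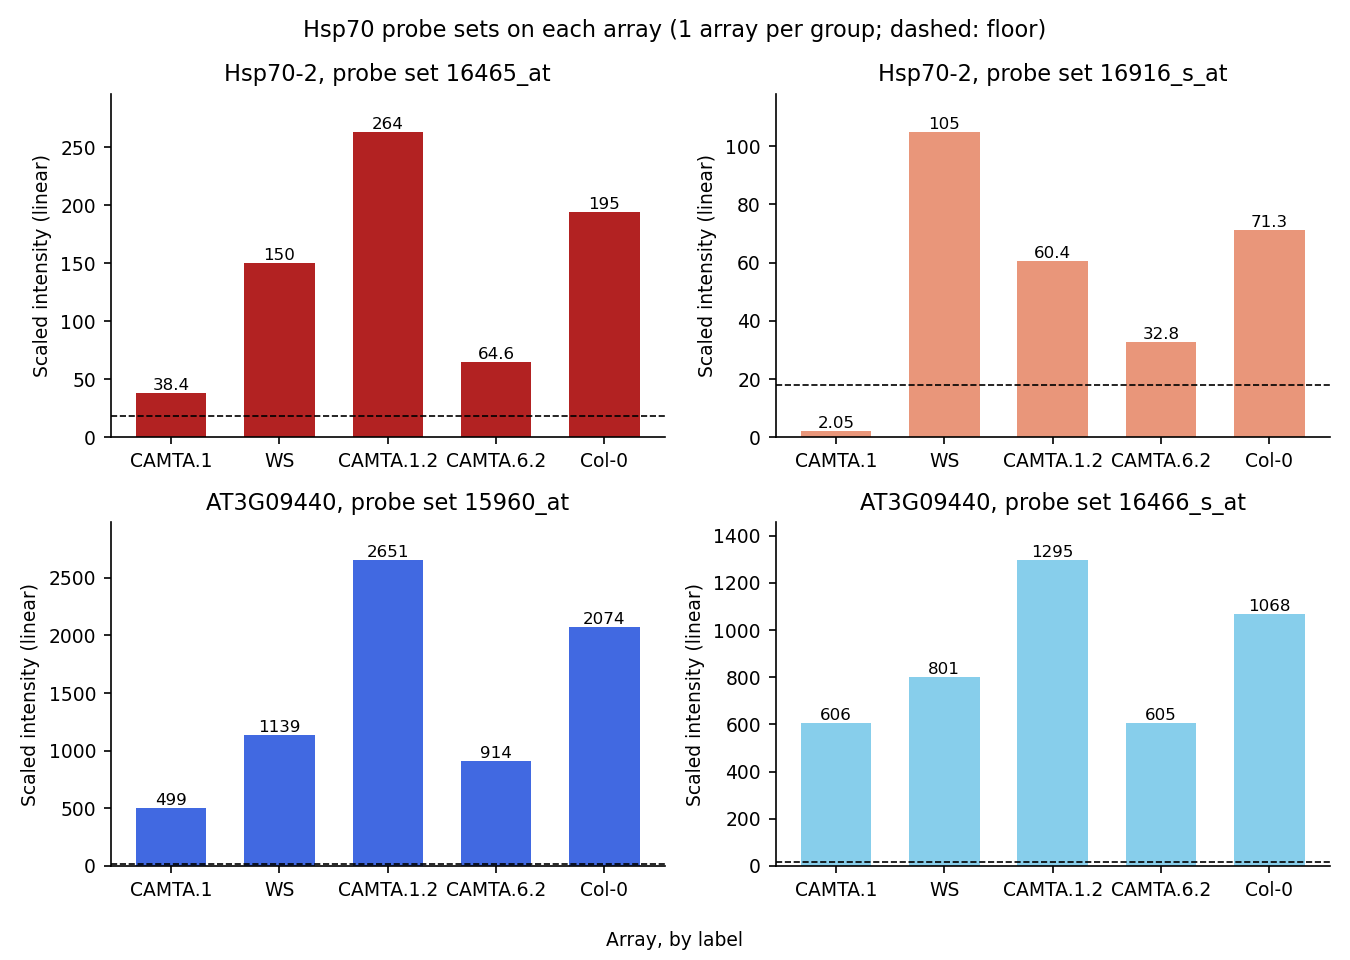
Scaled intensity (linear, from 0) of the 4 Hsp70 probe sets on the 5 arrays, 1 bar per array with no error because each group has 1 array; the dashed line is the floor of 18.1. The CAMTA.1 and CAMTA.6.2 bars are the 2 lowest in every panel, and WS is highest for 16916_s_at, CAMTA.1.2 for the other probe sets.

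In CAMTA.1 against WS, all 4 Hsp70 probe sets were lower on the CAMTA.1 array, 3 of them by 2-fold or more. Of all 8247 probe sets, 3.71% were lower by that much. Hsp70-2 was 3.90-fold lower on 16465_at, a log2 difference of -1.97, and at least 5.80-fold lower on 16916_s_at. AT3G09440 was 2.28-fold lower on 15960_at, a log2 difference of -1.19, but 1.32-fold lower on 16466_s_at, which is -0.40 in log2. The median over the 4 probe sets was -1.58. Over all probe sets the median was 0, and over those above the floor on every array it was 0.13. In the whole table, 72 probe sets were lower by as much as or more than 16465_at, and 212 by as much as or more than 15960_at, counting these probe sets themselves.

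In CAMTA.6.2 against Col-0, the same count was found. All 4 probe sets were lower on the CAMTA.6.2 array and 3 of them by 2-fold or more, against 4.17% of all probe sets. Hsp70-2 was 3.01-fold lower on 16465_at and 2.17-fold lower on 16916_s_at, with log2 differences of -1.59 and -1.12. AT3G09440 was 2.27-fold lower on 15960_at and 1.77-fold lower on 16466_s_at, with log2 differences of -1.18 and -0.82. The median over the 4 probe sets was -1.15. With log2(intensity + 16) in place of the floor, 16916_s_at fell short of 2-fold at -0.84. Of all probe sets, 2.09% were at least 2-fold lower both here and in CAMTA.1 against WS, which have no array in common. These were 172 probe sets, out of 306 that low in CAMTA.1 against WS and 344 that low here. A joint drop was thus common among probe sets that were low in either comparison. All of the Hsp70 probe sets but 16466_s_at were among the 172.

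In CAMTA.1.2 against Col-0, none of the 4 probe sets was 2-fold apart, where 1.93% of all probe sets were. Hsp70-2 was 1.36-fold higher on the CAMTA.1.2 array on 16465_at, a log2 difference of 0.44, and 1.18-fold lower on 16916_s_at, a log2 difference of -0.24. AT3G09440 was 1.28-fold and 1.21-fold higher on its probe sets. The probe sets of Hsp70-2 thus differ in sign in this comparison. The comparisons of CAMTA.1.2 and CAMTA.6.2 share the Col-0 array, and the level on it enters both values.

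In WS against Col-0, again no probe set of either gene was 2-fold apart, where 4.15% of all probe sets were. AT3G09440 was 1.82-fold lower on the WS array on 15960_at, a log2 difference of -0.86, and 1.33-fold lower on 16466_s_at. Hsp70-2 was 1.30-fold lower on 16465_at and 1.47-fold higher on 16916_s_at, so its probe sets differed in sign here as well. Among all probe sets, 275 were lower by as much as or more than 15960_at.

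**Figure D2:**
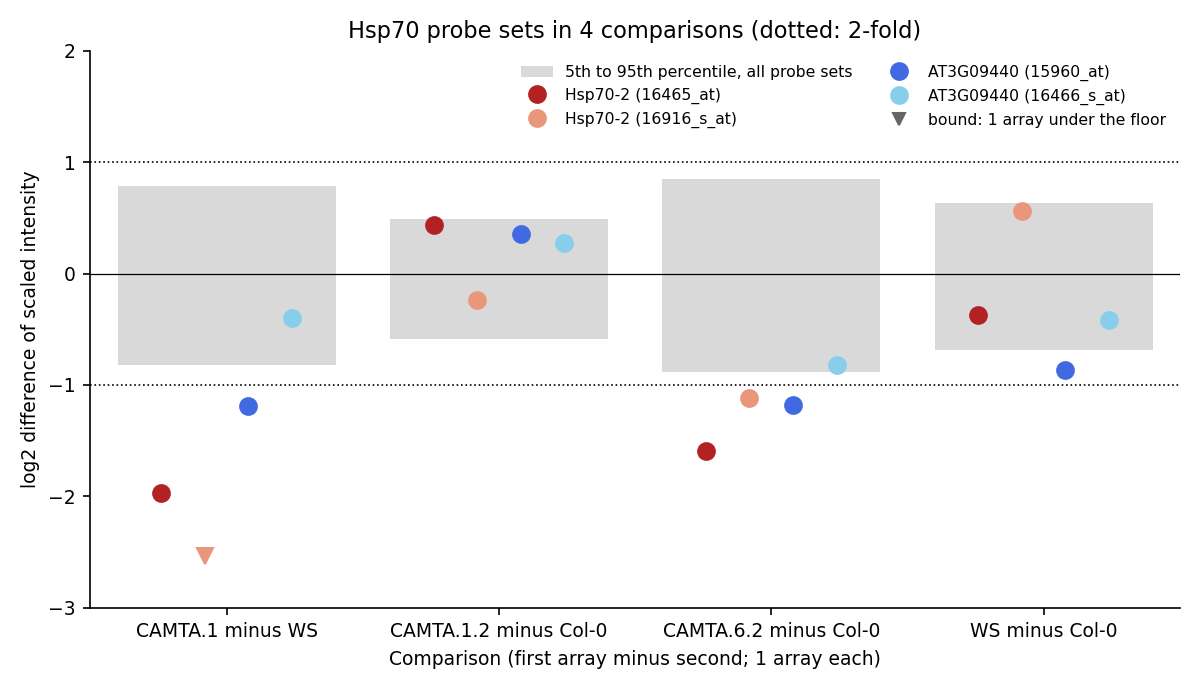
Log2 difference of scaled intensity (first array minus second, 1 array each) of the 4 Hsp70 probe sets in 4 comparisons; grey boxes span the 5th to 95th percentile of all 8247 probe sets, dotted lines mark 2-fold, and a triangle is a bound with 1 array under the floor. In CAMTA.1 minus WS and CAMTA.6.2 minus Col-0, 3 of 4 points lie below -1; in the other comparisons no point passes 2-fold.

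Since no group had a second array, the error of these differences between plants is unknown. A technical measure came from 83 genes, the Hsp70 genes left out, that had at least 2 probe sets above the floor on every array. Hsp70-2 itself would not pass this filter, because 16916_s_at was under the floor in CAMTA.1. Between the brightest 2 probe sets of such a gene, the log2 differences lay a median of 0.24 apart in CAMTA.1 against WS, and 90% of genes were within 0.64. In CAMTA.6.2 against Col-0 these values were 0.25 and 0.66, in CAMTA.1.2 against Col-0 0.19 and 0.53, and in WS against Col-0 0.41 and 1.02. The probe sets of AT3G09440 lay 0.79 apart in CAMTA.1 against WS, wider than for 90% of those genes, and those of Hsp70-2 lay at least 0.57 apart there. In CAMTA.6.2 against Col-0 the gaps were 0.47 for Hsp70-2 and 0.36 for AT3G09440. In CAMTA.1.2 against Col-0 the gap of Hsp70-2 was 0.68, larger than its difference of 0.44 on 16465_at and past the 0.53 that held for 90% of genes. In WS against Col-0 its gap was 0.93, against a difference of -0.38 on 16465_at, and within the 1.02 of that comparison. This measure holds only what differs between probes on the same arrays and none of the spread between plants or extractions.

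Hsp70-2 and AT3G09440 were set against each other by their differences between arrays, since levels of different probe sets cannot be compared. On the brighter probe sets, the log2 difference of Hsp70-2 less that of AT3G09440 was -0.77 in CAMTA.1 against WS, beyond the 0.64 that held for 90% of probe set pairs of a gene. It was -0.41 in CAMTA.6.2 against Col-0, 0.08 in CAMTA.1.2 against Col-0 and 0.49 in WS against Col-0, all within that limit for their comparison. The gap of -0.77 was about as wide as the 0.79 between the probe sets of AT3G09440 itself, so a different size of change in the 2 genes was not resolved.

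**Figure D3:**
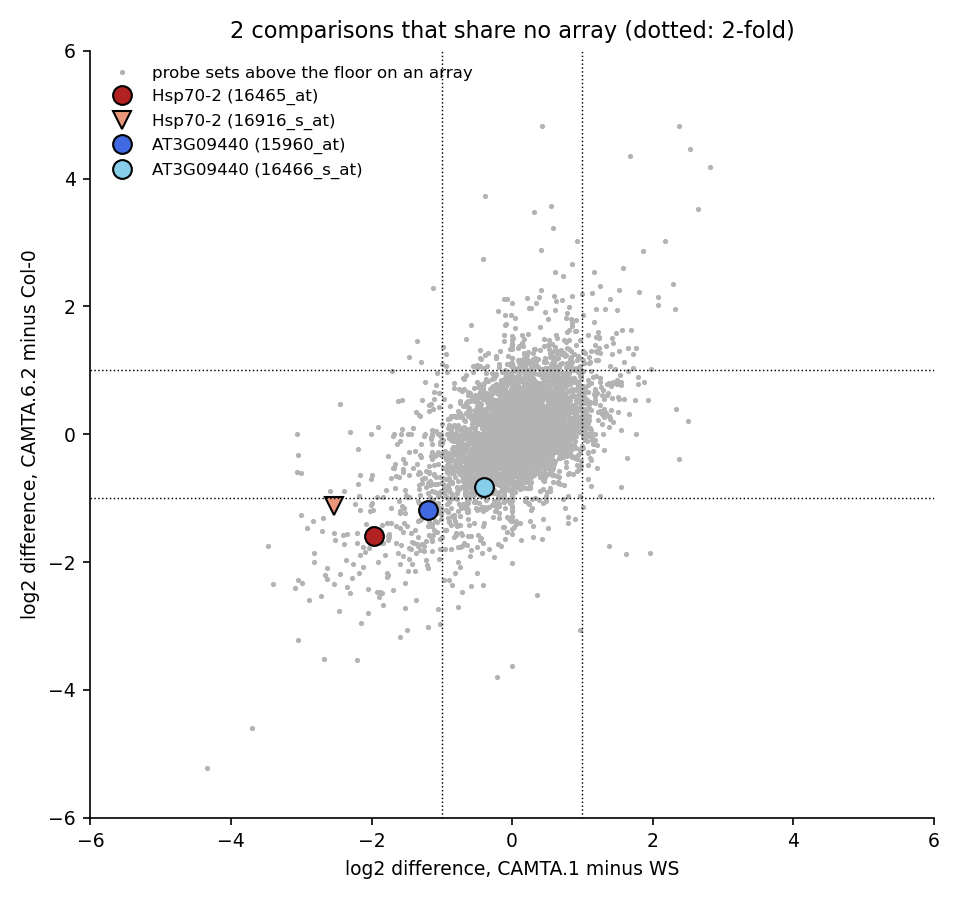
Log2 differences of the probe sets above the floor on at least 1 array (grey) and of the 4 Hsp70 probe sets (coloured), with CAMTA.1 minus WS on the x axis and CAMTA.6.2 minus Col-0 on the y axis; dotted lines mark 2-fold and the triangle is a bound on the x axis. The Hsp70 points lie in the lower left, 16465_at at -1.97 and -1.59, and 16466_s_at inside the 2-fold lines at -0.40 and -0.82.

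The pattern over all 5 arrays was compared by the root mean square distance between log2 values centred on their mean. The brighter probe sets of the 2 Hsp70 genes lay 0.31 apart. This was closer than either lay to the other probe set of its own gene, at 0.54 for Hsp70-2 and 0.47 for AT3G09440. Over the 83 genes above, 2 probe sets of a gene lay a median of 0.24 apart. Of 1680 other named genes above the floor on all arrays, 4 lay closer to Hsp70-2 than AT3G09440 did, and 5 lay closer to AT3G09440 than Hsp70-2 did.

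The gene nearest to Hsp70-2 was STZ, which encodes a zinc finger repressor of stress genes, at a distance of 0.14. STZ had scaled intensities of 68.8 in CAMTA.1 against 360.1 in WS, and of 586 in CAMTA.1.2 and 129 in CAMTA.6.2 against 423 in Col-0. Next came AT1G75280, of the isoflavone reductase family, at 0.23, the subtilase gene AT4G21640 at 0.25, AT4G01870 at 0.28 and AT2G44290 at 0.32. In CAMTA.1 against WS these 4 were between 2.89-fold and 4.60-fold lower on the CAMTA.1 array. AT4G01870 was 1.63-fold lower in CAMTA.6.2 against Col-0, while AT2G44290 was 2.91-fold lower.

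The genes nearest to AT3G09440 were AT2G35810 at 0.19, AOR, which encodes a reductase of reactive carbonyls, at 0.23, AAE15, of the acyl-activating enzyme family, at 0.25, AT2G34460 at 0.27 and AT4G09890 at 0.28. AOR had 45.2 in CAMTA.1 against 105 in WS, and 169.9 in CAMTA.1.2 and 77.1 in CAMTA.6.2 against 137 in Col-0. AT2G35810 was 2.21-fold lower in CAMTA.1 against WS and 1.86-fold lower in CAMTA.6.2 against Col-0. None of these 10 genes was on the heat shock or chaperone lists. The search took only genes above the floor on every array, so few listed genes could be found by it. Of those lists, AT1G11660, AT1G59860, CRT1b and AT5G07340 entered it, and SGT1A and AT2G29500 did not.

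Other heat shock and chaperone genes came from 7 lists with 81 loci, the 2 Hsp70 genes left out. A probe set named 10 of these loci alone, and 8 were above the floor on at least 1 array. In CAMTA.1 against WS, 3 of the 10 were at least 2-fold lower and none 2-fold higher. Of all probe sets, 3.71% were lower by that much. The log2 difference was below 0 for 3 genes of the list and above 0 for 3, and the list median was 0, as over all probe sets. Probe sets under the floor on both arrays count as 0, which holds both medians there, so they cannot show a shift. SGT1A, a co-chaperone of HSP90 and HSP70 in disease resistance, had a scaled intensity of 15.5 in CAMTA.1 against 55.3 in WS, at least 3.05-fold lower. AT1G59860, a class I small heat shock protein gene, had 31.8 in CAMTA.1 against 79.4 in WS, 2.49-fold lower. AT2G29500, of the same class, had 17.1 in CAMTA.1 against 40.1 in WS, at least 2.21-fold lower.

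In CAMTA.6.2 against Col-0, AT1G59860 alone of the 10 was 2-fold lower, where 4.17% of all probe sets were. It had 32.6 in CAMTA.6.2 against 69.1 in Col-0, and the list median was -0.04. SGT1A had 30.3 in CAMTA.6.2 against 48.3 in Col-0, 1.60-fold lower. None of the 10 was 2-fold apart in CAMTA.1.2 against Col-0 or in WS against Col-0, where 1.93% and 4.15% of all probe sets were. The list medians were -0.06 and 0. AT2G29500 came nearest, 1.95-fold higher in WS against Col-0, and passed 2-fold there with the values as deposited, at 1.05 in log2. AT1G59860, SGT1A and AT2G29500 were lowest on the CAMTA.1 and CAMTA.6.2 arrays, as the Hsp70 genes were, but all 3 were highest on the WS array. AT2G29500 had 18.4 in CAMTA.6.2 against 20.5 in Col-0, both close to the floor. With log2(intensity + 16) in place of the floor, AT1G59860 fell short of 2-fold in both comparisons, at -0.995 and -0.81, and AT2G29500 in CAMTA.1 against WS, at -0.76.

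The other 5 chaperone genes above the floor on an array were not lowest on both of these arrays. The HSP110-related gene AT1G11660 had 33.6 in CAMTA.1 against 21.0 in WS, and 30.4 in CAMTA.6.2 against 21.2 in Col-0. It was thus higher on those 2 arrays, by 1.60-fold and 1.43-fold. Of the genes for folding in the endoplasmic reticulum, the calreticulin gene CRT1b was 1.50-fold higher in CAMTA.1 against WS and 1.06-fold lower in CAMTA.6.2 against Col-0. The calnexin gene AT5G07340 stayed between 88.0 and 107 on all 5 arrays. AT4G16660 and the small heat shock protein gene AT1G53540 were close to or under the floor throughout, and ATHSP22.0 and Hop3 were under it on every array. No probe set named any of the listed HSP90, HSP100, heat shock factor or chaperonin genes alone, so those groups were not analysed here.

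**Figure D4:**
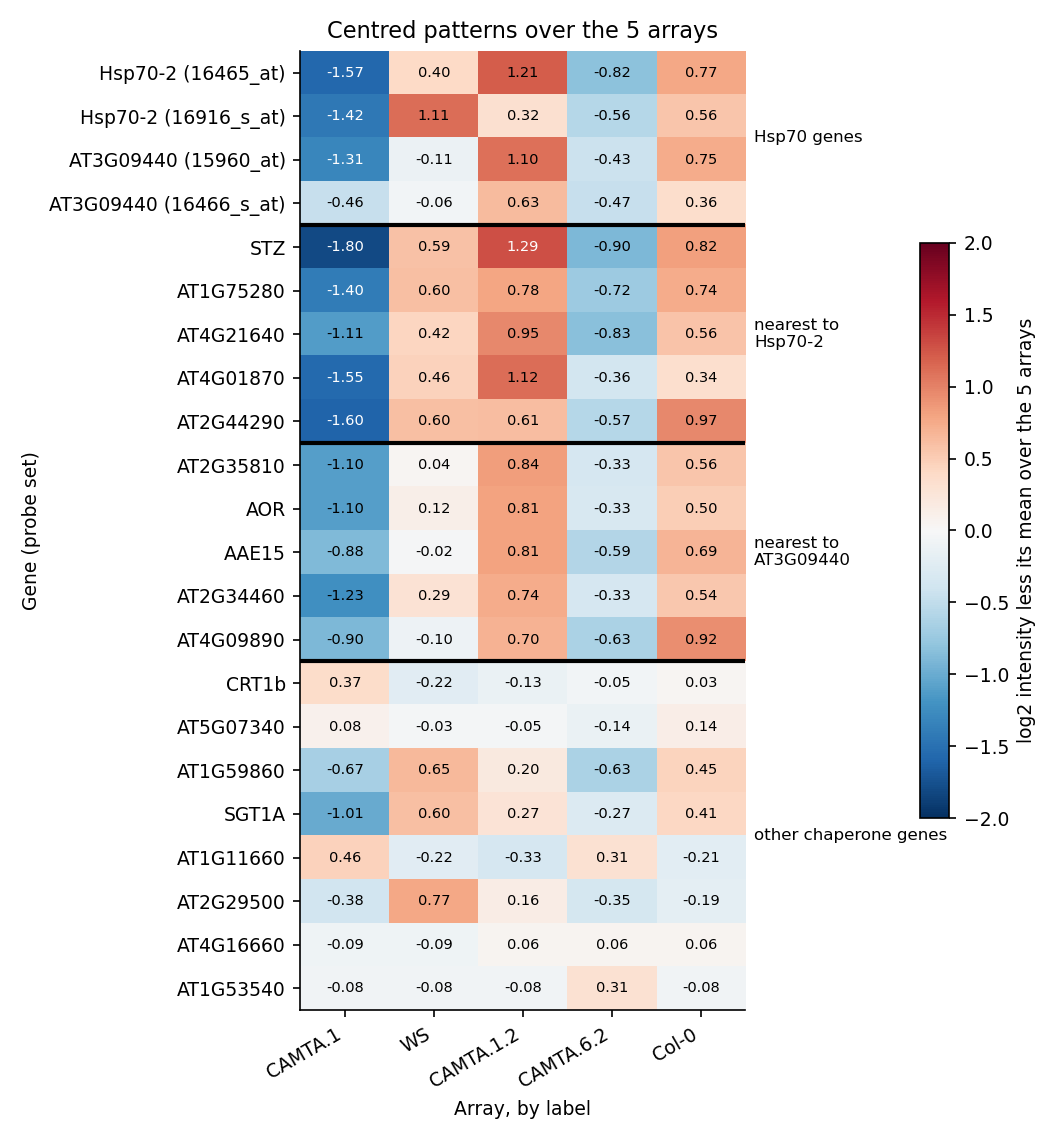
Log2 scaled intensity less its mean over the 5 arrays (colour and printed value) for the 4 Hsp70 probe sets, the 5 genes nearest in pattern to each Hsp70 gene, and the 8 other chaperone genes above the floor on an array; columns are the arrays by label. Hsp70-2 (16465_at) is lowest on CAMTA.1 at -1.57 and highest on CAMTA.1.2 at 1.21, AT1G59860, SGT1A and AT2G29500 are highest on WS, and AT5G07340 stays between -0.14 and 0.14.

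Several other measures differed between the same arrays. The array background given in the labels was an intensity of 64.9 in CAMTA.1 against 92.6 in WS, and 75.6 in CAMTA.1.2 and 74.4 in CAMTA.6.2 against 60.7 in Col-0. The ratio of the 3′ to the 5′ control probe set of ubiquitin was 3.32 in CAMTA.1 against 2.28 in WS, and 2.68 in CAMTA.1.2 and 3.57 in CAMTA.6.2 against 2.64 in Col-0. For GAPDH the ratio was 1.29 in CAMTA.1 against 1.38 in WS, and 1.94 in CAMTA.1.2 and 1.78 in CAMTA.6.2 against 1.64 in Col-0. Markers of root and leaf were found on every array of these whole plants. The 4 root marker genes were all named, and each was above the floor on all arrays except AT4G26010 in CAMTA.1.2 and in Col-0. Their summed deposited intensity was 526 in CAMTA.1 against 470 in WS, and 200 in CAMTA.1.2 and 436 in CAMTA.6.2 against 213 in Col-0. Not every root gene followed these sums. AT4G26010 was 1.41-fold lower in CAMTA.1 against WS, and AT3G01190 and AT5G66390 were higher in CAMTA.1.2 against Col-0. Of 6 leaf markers RCA and PSAE-1 were named, and they summed to 7809 in CAMTA.1 against 6142 in WS, and to 8482 in CAMTA.1.2 and 9292 in CAMTA.6.2 against 7537 in Col-0. In CAMTA.6.2 against Col-0 they went opposite ways, with RCA 1.10-fold lower and PSAE-1 2.02-fold higher. No listed flower or seed marker was named alone by a probe set. The clock gene GI, the only one of 12 listed clock genes named, had a scaled intensity of 353 in CAMTA.6.2 against 110.3 in Col-0, and 160.5 in CAMTA.1 against 122 in WS. The part of these measures in the Hsp70 differences was not tested.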

How the data were processed

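Biotin-labelled cRNA from TRIzol-extracted total RNA of 5 samples was hybridised to 1 array each, per the labels' protocols. The authors deposited 1 linear intensity value for each probe set and array. With 2% trimmed from each end, every array averaged about 100, so the authors had brought them to a common level. How probes were summarised into probe sets was not given in the sources used here.

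Of 8297 probe sets, 50 controls were left out. The floor was the 40th percentile of all values, 18.1. The 4245 probe sets that passed the floor on every array gave a median log2 value per array, these medians were made equal, lower values were set to the floor, and log2 differences were read against 2-fold. A fold with 1 side under the floor is given as at least that size. Signal over background and 1 array per group limit the precision. Genes were named from the platform annotation through gene IDs matched to TAIR10.1. Of the probe sets, 3794 named 1 gene, 70 several and 4383 none. The brightest probe set stood for a gene. The text names both Hsp70 genes, members of chaperone, clock and organ marker lists, and the 5 named genes nearest in pattern to each. Members and lists were chosen with earlier results of these data known. The steps were tested on simulated data. Alternatives were the values as deposited, quantile normalization, a floor at the 20th percentile, a pseudocount of 16 in place of the floor, the mean over a gene's probe sets and a filter on dim probe sets. Python 3.11.15, numpy 2.4.6, pandas 2.3.3, scipy 1.17.1 and matplotlib 3.10.9 were used.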

Additional observations from a re-analysis of the deposited data

Results flagged for a closer look

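The values of Hsp70-2 and AT3G09440 were flagged after both genes had been set as the members. On their brighter probe sets, the differences of lines whose names start with CAMTA.1 had opposite signs in the 2 accessions. The log2 difference of Hsp70-2 was -1.97 in CAMTA.1 against WS and 0.44 in CAMTA.1.2 against Col-0, which is -2.40 for the first less the second. For AT3G09440 it was -1.19 and 0.35, which is -1.55 for the first less the second. In CAMTA.1.2 against Col-0 both values were smaller than 0.53, the gap between probe sets of a gene that held for 90% of genes. The other probe set of Hsp70-2, 16916_s_at, was lower in both, at -2.54 or below and at -0.24, and the mean over its probe sets was 0.10 in CAMTA.1.2 against Col-0. With 1 array in each group this difference was not tested, and the labels do not state that both lines carry the same change.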

How the results depend on the processing

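Of 40 alternative values for the Hsp70 genes, 38 kept their direction and their side of 2-fold. The mean over both probe sets gave -0.80 for AT3G09440 in CAMTA.1 against WS, short of 2-fold because 16466_s_at differs less, and 0.091 for Hsp70-2 in WS against Col-0, where the brighter probe set gave -0.38. Over all settings, Hsp70-2 lay between -2.25 and -1.61 in CAMTA.1 against WS and between -1.64 and -1.35 in CAMTA.6.2 against Col-0. The -2.25 is the mean over both probe sets and includes the bound of 16916_s_at, so that mean could be lower still. With the floor at the 20th percentile, 16916_s_at gave -4.24 in CAMTA.1 against WS. AT3G09440 lay between -1.31 and -1.002 in CAMTA.6.2 against Col-0. With a floor at the 20th percentile, more dim probe sets counted as 2-fold apart: 909 in place of 505 for CAMTA.1 against WS, 506 in place of 159 for CAMTA.1.2, 1089 in place of 630 for CAMTA.6.2 and 758 in place of 342 for WS against Col-0. With log2(intensity + 16), 103 did for CAMTA.1.2. Other chaperone genes 2-fold apart then numbered 1 in place of 3 for CAMTA.1 and 0 in place of 1 for CAMTA.6.2. For WS against Col-0, 1 such gene was 2-fold higher, in place of 0, under 2 settings: AT2G29500 with the values as deposited, and Hop3 with the lower floor. As deposited, 25.8% of 2-fold probe sets were higher in CAMTA.1 against WS in place of 39.4%, and 48.7% in WS against Col-0 in place of 38.3%. Through the median scaling, probe sets that passed the floor on all arrays had a median of 0.13 in CAMTA.1 against WS. No paired analysis was possible because each group has 1 array. No array could be left out in turn for the same reason.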
